A study of Mus musculus with 7 samples.

Results

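The regions described here are the H3K9me3 peaks of WT cells that were still covered by a peak after Setdb1 deletion. They were selected on the measured positions of both peak lists: an autosomal WT peak (chromosomes 1 to 19) was taken where 1 bp or more of it was also covered in the KO list, and the KO peaks lying on it were taken too. In all, 513 of 21957 autosomal WT peaks were retained in this sense (2.34%, 95% Wilson interval 2.15 to 2.55%), and the other 21444 are called lost. From the KO side, 556 of 3668 autosomal peaks overlapped a WT peak (15.2%, interval 14 to 16.4%), and the other 3112 are called KO-only. The overlap chose these peaks, so their number and the paired widths and heights are a description with no test.

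H3K9me3 is histone H3 with 3 methyl groups on its lysine 9. It was mapped by native ChIP-seq of chromatin cut with micrococcal nuclease. Both groups were Setdb1 cKO iMEFs, immortalized mouse embryonic fibroblasts whose conditional Setdb1 alleles are deleted by 4-hydroxytamoxifen (4OHT). WT cells carried the same conditional alleles and received no treatment, and KO cells received 4OHT for 4 days and were harvested on day 7. Per the methods of the study, such iMEFs were recloned from single cells and a clone was chosen for its response to 4OHT, so the cells stand for 1 line. Each group had 1 library, which leaves no spread between replicates, no p-value, and no way to tell the treatment from the library. The peak lists hold no measure of Setdb1 itself or of cell identity.

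Setdb1 is a histone methyltransferase that places H3K9me3 on chromatin where KRAB zinc-finger proteins and their corepressor Trim28 bring it, above all on endogenous retroviruses (ERVs) and on zinc-finger gene clusters. Other enzymes place the same mark: Suv39h1 and Suv39h2 act at pericentric heterochromatin, which in the mouse consists of long arrays of the major satellite repeat. In the assembled genome such arrays appear only as short remnants, and genes copied in tandem are often collapsed, so that reads of many copies pile up on few bases.

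The sequences of 6 retained peaks are shown, 1 from each of the 6 runs that held most of them, so that the kinds of sequence can be compared. A run is a set of retained peaks with gaps of at most 100 kb between neighbours. The WT and KO peaks of a run were counted only from its first to its last retained peak. Both ends are thus retained by construction, which raises the shares retained within runs. Each sequence is the plus strand of mm9 over the WT peak of at most 300 bp that shared most bases with its KO partner, and capitals mark the bases shared with the KO peak.
chromosome 8, 2610005L07Rik run, chr8:19941871-19942114: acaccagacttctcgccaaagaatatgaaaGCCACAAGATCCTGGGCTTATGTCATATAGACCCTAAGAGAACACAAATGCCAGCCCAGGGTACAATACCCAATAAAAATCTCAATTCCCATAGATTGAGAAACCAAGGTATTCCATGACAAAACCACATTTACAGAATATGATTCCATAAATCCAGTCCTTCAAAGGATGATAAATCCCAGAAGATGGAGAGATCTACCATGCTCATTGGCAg
chromosome 9, Gm16869 run, chr9:3001664-3001888: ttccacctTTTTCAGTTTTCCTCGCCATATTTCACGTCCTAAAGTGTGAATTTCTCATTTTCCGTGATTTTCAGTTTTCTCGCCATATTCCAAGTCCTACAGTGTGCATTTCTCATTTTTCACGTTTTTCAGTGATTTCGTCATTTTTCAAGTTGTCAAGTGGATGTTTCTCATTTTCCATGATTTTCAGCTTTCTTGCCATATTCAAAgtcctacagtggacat
chromosome 5, Speer run, chr5:14997372-14997638: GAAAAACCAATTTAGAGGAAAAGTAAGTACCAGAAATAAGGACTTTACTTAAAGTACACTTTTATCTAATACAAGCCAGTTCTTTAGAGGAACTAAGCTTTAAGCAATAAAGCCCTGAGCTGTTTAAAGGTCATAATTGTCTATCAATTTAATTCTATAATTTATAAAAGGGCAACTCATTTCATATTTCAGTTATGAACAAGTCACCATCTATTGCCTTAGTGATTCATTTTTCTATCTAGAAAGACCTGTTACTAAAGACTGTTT
chromosome 8, Gm10033 run, chr8:71998763-71998997: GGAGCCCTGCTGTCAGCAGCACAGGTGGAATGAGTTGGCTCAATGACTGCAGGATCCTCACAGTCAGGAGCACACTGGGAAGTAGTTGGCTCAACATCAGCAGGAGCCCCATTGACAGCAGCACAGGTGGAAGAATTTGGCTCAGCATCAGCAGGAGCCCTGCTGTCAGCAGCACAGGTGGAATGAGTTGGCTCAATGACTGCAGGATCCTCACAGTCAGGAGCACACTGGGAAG
chromosome 8, 4930467E23Rik run, chr8:19762377-19762627: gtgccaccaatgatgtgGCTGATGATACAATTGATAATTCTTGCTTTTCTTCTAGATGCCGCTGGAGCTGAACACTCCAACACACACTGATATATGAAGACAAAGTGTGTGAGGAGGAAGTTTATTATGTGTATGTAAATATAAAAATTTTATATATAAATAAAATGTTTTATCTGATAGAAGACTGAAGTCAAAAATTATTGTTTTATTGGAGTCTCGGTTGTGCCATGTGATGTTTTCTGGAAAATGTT
chromosome 11, Sfi1 run, chr11:3002775-3003052: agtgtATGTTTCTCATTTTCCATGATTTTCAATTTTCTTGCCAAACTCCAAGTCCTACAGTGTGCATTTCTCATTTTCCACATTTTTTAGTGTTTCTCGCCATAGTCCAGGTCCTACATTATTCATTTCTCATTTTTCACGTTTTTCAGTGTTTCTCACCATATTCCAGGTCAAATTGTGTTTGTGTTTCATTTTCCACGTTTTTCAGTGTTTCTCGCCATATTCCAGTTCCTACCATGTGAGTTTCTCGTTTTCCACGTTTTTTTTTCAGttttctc
Since they were chosen for their shared bases, all 6 were covered over most of their length, from 213 of 244 bp in the first to all 267 bp in the chromosome 5 peak and all 235 bp in the Gm10033 run. The chromosome 9 peak, with 201 of 225 bp, is the narrowest of its run and had the highest width ratio there, 0.893, against a run median of 0.314. WT and KO pileup, the number of fragments stacked over the summit of a peak, was 35 and 39 for the first sequence and 140 and 127 for the second. It was 35 and 31 for the third, 45 and 47 for the fourth, 39 and 44 for the fifth, and 105 and 84 for the sixth. KO was thus lower in 3 of these peaks and higher in 3. The chromosome 9 sequence comes from an array of the major satellite. The chromosome 11 sequence had 31.3% of its 15-letter words somewhere in that array, on either strand, and the other 4 sequences had 0%. The copy number, taken as the median count of the 31-letter words of a peak in the assembled chromosomes, was 4, 16, 3, 20, 4 and 2 in the order shown, so none of the 6 was unique.

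Retained peaks gathered in few places. They formed 24 runs of 4 or more that together held 265 of the 513 peaks (51.7%, interval 47.3 to 56.0%), and the 8 leading runs held 166 (32.4%). All autosomal WT peaks, which are far denser, lay in such runs in 65.2%, so no difference can be read from the share of retained peaks. Among peaks with a local background (the coverage the caller took as unenriched) of at most 3 fragments, 237 were retained and 15.6% of them lay in runs of 4 or more. The other end of the range was 188 retained peaks (36.7%) with no retained neighbour within 100 kb. Among chromosomes, chromosome 8 held most, with 109 retained of 1709 WT peaks (6.38%, interval 5.31 to 7.64%). By share, chromosome 11 followed with 42 of 997 (4.21%) and chromosome 4 with 54 of 1441 (3.75%). Chromosomes 6, 12 and 14 held 7 each, or 0.730%, 0.848% and 0.686% of their WT peaks. Chromosome 17 kept 25 of 1311 (1.91%), close to the share over all autosomes.

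**Figure D1:**
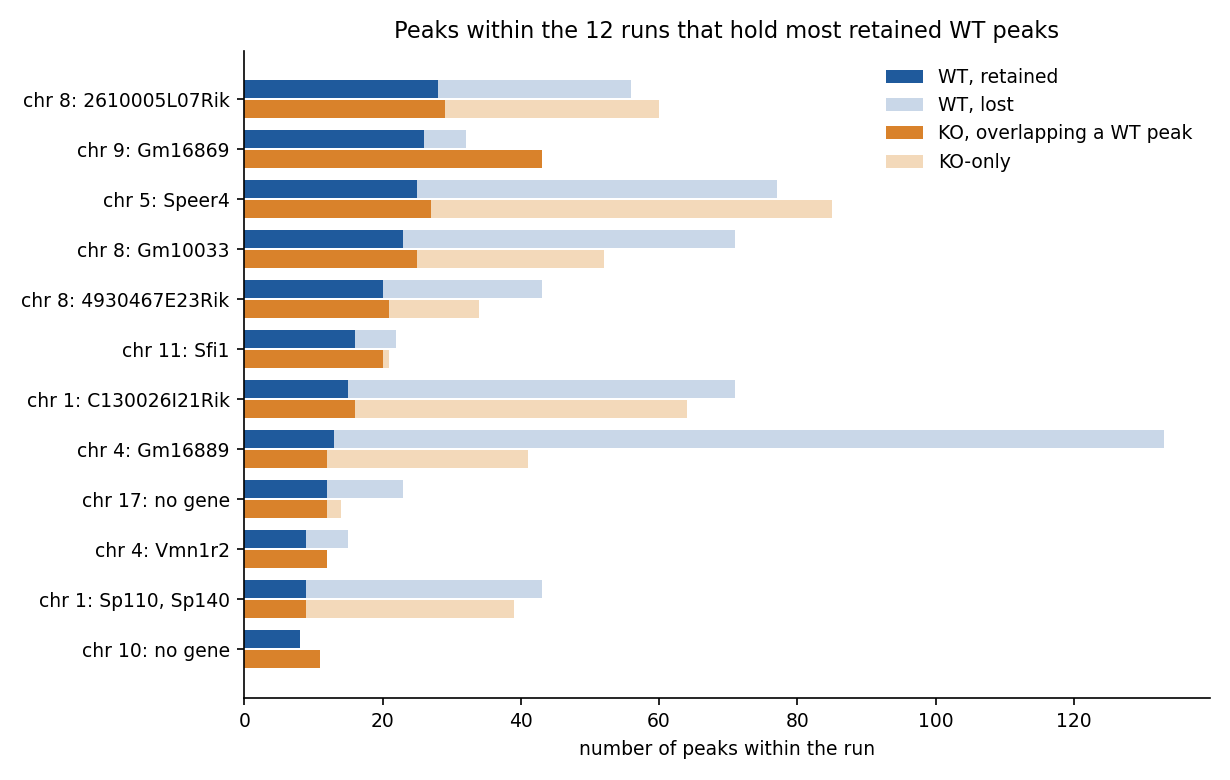
Numbers of WT peaks (blue, retained in dark and lost in light) and KO peaks (orange, overlapping a WT peak in dark and KO-only in light) within each of the 12 runs with most retained peaks, named by chromosome and a gene in the run. Each run was counted from its first to its last retained peak, so peaks just outside these limits are not shown. The chromosome 9 and chromosome 10 runs and the run at the start of chromosome 4 held no KO-only peak, whereas KO-only peaks outnumbered overlapping ones in the chromosome 5, both chromosome 1 and the chromosome 4 (Gm16889) runs and, by 31 to 29 and 27 to 25, in the 2610005L07Rik and Gm10033 runs of chromosome 8.

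The leading run lay at chr8:19905364-20036465, over the noncoding genes 2610005L07Rik, AC152164.1 and Gm17279 and the protein-coding model Gm15319. Here 28 of 56 WT peaks were retained, and 29 of 60 KO peaks overlapped them. Median pileup was 34 in WT against 32 in KO, and the KO peak was lower in 16 of 28 pairs. A second run on the same chromosome, at chr8:19721312-19778947, held 20 of 43 WT peaks around 4930467E23Rik, with median pileups of 28.5 and 27. Another, at chr8:71860263-72055220, held 23 of 71 WT peaks near the models Gm10033, Gm10311 and Gm7697, with 22 and 20. These 3 runs shared sequence. Of the 31-letter words in the retained peaks of the Gm10033 run, 19.6% also occurred in those of the 4930467E23Rik run and 8.82% in those of the leading run. None of these peaks touched an annotated exon. The first 2 runs lie in the part of chromosome 8 that also holds alpha- and beta-defensin genes, but 0 retained peaks lay over any Defa or Defb gene body, and only 3 WT peaks lay over a Defb gene.

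On chromosome 5, the run at chr5:14899874-15202004 covered the Speer genes Speer4e, Speer4d and Speer7-ps1 and the models Gm9758, Gm10354 and Gm17019. Speer genes encode glutamate-rich proteins made in spermatogenic cells. Of 77 WT peaks 25 were retained, with a median pileup of 38 in WT and 36 in KO. Their widths were kept too: the medians of 230 bp (WT) and 215 bp (KO) were close, the median ratio was 1.02, and the KO peak was narrower in 12 of 25 pairs. Only 5 of the 25 lay inside a gene, all in Speer7-ps1, where 5 of 17 WT peaks were retained. The run also held 58 KO-only peaks beside 27 overlapping ones.

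The run at chr1:85095667-85335101, over C130026I21Rik, A530032D15Rik and A530040E14Rik, was the only one of the 8 leading runs in which KO was mostly higher. Median pileup was 21 in both lists, the median of the paired ratios was 1.11, and the KO peak was lower in 3 of 15 pairs. It held 15 retained of 71 WT peaks and 48 KO-only peaks. The nearby run at chr1:87345807-87512123, over Sp110 and Sp140, which encode proteins of nuclear bodies, kept 9 of 43 WT peaks. Median pileups were 19 and 17, but the median of the paired ratios was 1.06 and KO was lower in 4 of 9 pairs. The 2 runs shared sequence: 12.1% of the words of the Sp110 run occurred in the C130026I21Rik run. The 3 retained peaks in Sp140 lay among 14 WT peaks of that gene, and the one at chr1:87505518-87505834, in an intron, had a pileup of 20 in WT and 29 in KO.

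Major satellite sequence was the second setting. The run at chr9:3000033-3038311 is the assembled start of chromosome 9, and 25 of its 26 retained peaks lay in a tandem repeat, 22 of these with a period of 234 bp, the unit of the major satellite. The limits of the run, set by its retained peaks, held 32 WT peaks, of which 81.3% were retained. All 43 KO peaks within them overlapped a WT peak. Over the first 1 Mb of sequence on chromosome 9, which reaches beyond the run, 26 of 48 WT peaks were retained. There, 43 of 47 KO peaks overlapped a WT peak. WT pileup was 140 in 25 of the 26 retained peaks and 134 in the other, and KO pileup lay between 116 and 130. KO was therefore lower in 26 of 26 pairs, with a median ratio of 0.921. These heights are at a ceiling: 140 is the highest pileup in the WT list and 130 in the KO list, which equal 2 reads for each base of the narrowest peaks of 70 and 65 bp, as when 1 read per strand and position is kept. The ratio of the ceilings is 0.929. The KO ceiling of 130 lies below the lowest WT pileup here, 134, so the direction of these pairs was fixed in advance. KO pileups in the run also reached their ceiling, so heights in both lists could be larger than their pileups show. The ratio of heights is thus limited on both sides. Width has no ceiling of its own, but it was called from the same capped pileup. The WT median of 1002 bp stood against 363 bp for the KO partner. This partner was narrower in 26 of 26 pairs, with a median ratio of 0.314. It is the 1 KO peak that shared most bases, and with 43 KO peaks in the run some WT peaks met several. The ratio leaves out those further KO peaks. The local background that the caller set against these peaks was also high, at a median of 84.8 fragments in WT and 72.7 in KO, so that the fold enrichment was only 1.64 and 1.75.

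**Figure D2:**
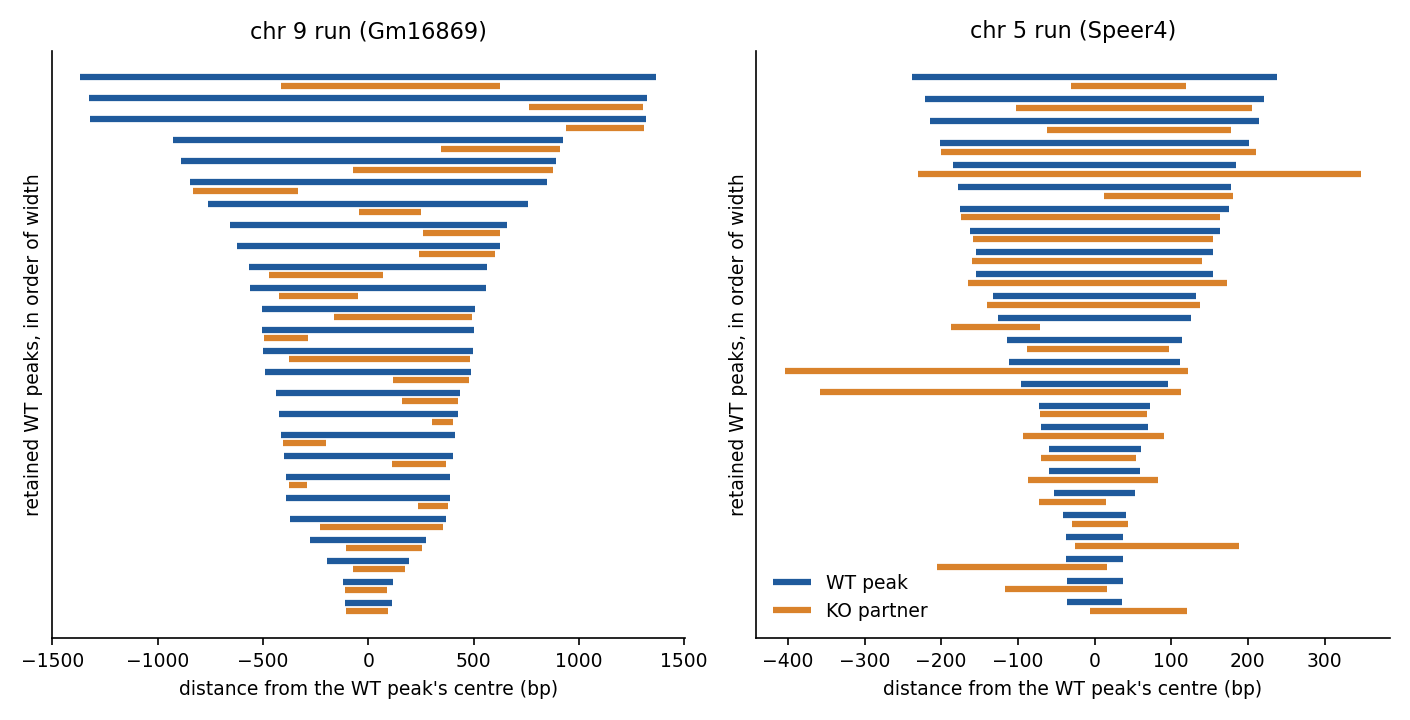
WT peaks (blue) and their KO partners (orange) drawn as distance in bp from the centre of the WT peak, 1 pair per row in order of WT width, for the chromosome 9 satellite run (26 pairs) and the chromosome 5 Speer run (25 pairs). The KO partner covers a part of each WT peak on chromosome 9 (median width ratio 0.314) and about its whole length on chromosome 5 (median width ratio 1.02). Further KO peaks on the same WT peak are not drawn.

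Satellite sequence was also found in retained peaks away from chromosome 9. Outside that run, 14 of 487 retained peaks had at least 20% of their 15-letter words in the chromosome 9 run, against 3 of 21438 lost peaks. The list thus held 17 WT peaks with such sequence, and 14 were retained (82.4%, interval 59 to 93.8%), on 9 chromosomes. Among all WT peaks with a pileup of 100 to 140, a similar share was retained, 56 of 65 (86.2%). The 14 satellite-like peaks were tall and kept their width. Their median pileup was 132 in WT and 121 in KO, and their median width ratio 0.943. Several lay alone inside genes. An intron of Litaf, which encodes an endosomal membrane protein, held a peak at chr16:10975194-10975387 with a pileup of 140 in WT and 127 in KO and widths of 194 and 195 bp. An intron of Ank1, the gene of an ankyrin of the red cell membrane skeleton, held one at chr8:24205970-24206307 with 127 and 112. The peak at chr5:115372485-115372617, with 133 and 124, ended 632 bp upstream of a transcript start of Oasl1, an interferon-induced gene. Others lay in introns of Mdga2 (135 and 123) and Mamdc2 (116 and 100). The tallest group was the run at chr2:98502420-98506664 over Gm10801, where all 4 WT peaks within its limits were retained. Each had a pileup of 140 in WT and 130 in KO. Of these, only the peaks at chr2:98502420-98503158 and chr2:98503838-98504267 reached the 20% of words.

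The run at chr11:3000025-3100067 joined satellite-like peaks to a gene region at the assembled start of chromosome 11. It held 16 of 22 WT peaks, and 20 of its 21 KO peaks overlapped them. The first 6 peaks, before position 3004779, had WT pileups between 58 and 131 and KO pileups between 50 and 119. In this run, only the peaks at chr11:3000025-3000104, chr11:3000339-3000670 and chr11:3002775-3003052 reached the 20% of words in the chromosome 9 run. Further along, the peak at chr11:3093477-3094320, which ended 11 bp upstream of a start of Sfi1, a gene of a centrosome protein, had 57 and 48. The peak at chr11:3099558-3100067 inside Drg1, the gene of a GTP-binding protein, had 57 and 54. KO was lower in 14 of the 16 pairs, with a median ratio of 0.875.

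Another class of tandem repeat marked the starts of further chromosomes. A period of 21 bp was found at 24 retained peaks, 23 of them within the first 1 Mb of assembled sequence, spread over chromosomes 3, 4, 7, 16 and 17. The run at chr17:3014576-3036857 kept 12 of 23 WT peaks, all 12 in tandem repeats, with median pileups of 48 and 38.5 and no annotated gene. The run at chr4:3009279-3104211, which spans Vmn1r2, a vomeronasal receptor gene, kept 9 of 15, with 43 and 37. The one at chr3:3000220-3015319 kept 6 of 21, with 37.5 and 33.5. Not every chromosome start behaved in this way. Over all autosomes 78 of 438 WT peaks in the first 1 Mb were retained (17.8%), and they came from 9 chromosomes, while the other 10 kept none of their 134 such WT peaks. The 21-bp period also marked 46 lost peaks, so the repeat did not by itself tell retained from lost peaks.

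A short array on chromosome 10 had the largest loss of height among the runs of 4 or more. The run at chr10:7229400-7237120, with a period of 19 bp at 6 of its 8 peaks and no annotated gene, was named after its values were seen. All 8 WT peaks between its first and last retained peak were retained. WT pileups were 115, 118, 109, 103, 116, 107, 112 and 102, and those of the KO partners in the same order were 69, 68, 63, 59, 56, 70, 73 and 63. All 8 were lower in KO, and the median ratio was 0.589. The local background was nearly equal, at medians of 23.3 and 21.3, and fold enrichment fell from 4.37 to 3.04. Width changed less, with a median ratio of 0.902. In these 2 tandem arrays, height and width gave different pictures. On chromosome 9 the KO partners were narrower at a WT pileup at its ceiling, and on chromosome 10 they were lower at nearly the same width.

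The zinc-finger gene region of distal chromosome 4 held lower retained peaks than the other leading runs. Between positions 145272743 and 147016102, 37 of 379 WT peaks were retained (9.76%, interval 7.17 to 13.2%). All but the peak at chr4:145483055-145483489 lay in 6 runs of 3 or more. The limits are the ends of the outermost of these runs, so retained peaks set them, which raises the share. Retained peaks at chr4:145039254-145040227 and chr4:147134151-147134290 lay outside them. The 37 had a median pileup of 14 in WT and 12 in KO, and median widths of 269 bp (WT) and 136 bp (KO). The largest of these runs, at chr4:146557851-147016102, held 13 of 133 WT peaks over Gm16889, Gm17317, 2610305D13Rik and other models. Of the 37, 9 were wider than 1 kb in WT. The widest retained peak, chr4:146431032-146435088 over a coding exon of Gm13138, had 4057 bp and a pileup of 28 in WT, and its KO partner had 105 bp and a pileup of 13. The peak at chr4:146164164-146166250 over an exon of Zfp600 had 2087 bp and 23 in WT, against 164 bp and 16 in KO. In Rex2, 2 of 8 WT peaks were retained, the taller with pileups of 33 and 16. Across all autosomes, 61 of 357 WT peaks wider than 1 kb were retained (17.1%, interval 13.5 to 21.3%). Outside chromosome 9's satellite run the 48 wide ones had a median WT width of 1455 bp, of which the KO partner covered a median of 10.8%, and their median pileup ratio was 0.588. A wide peak has more bases on which 1 bp can be shared, so the rule takes in such remnants more readily.

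Over all 513 pairs, each WT peak was set against the KO peak that shared most bases with it. Median widths were 239 bp for WT and 141 bp for KO, and the median of the paired ratios was 0.677. The KO peak was narrower in 408 pairs, equal in 3 and wider in 102. It lay wholly inside the WT peak in 288 pairs, and the WT peak lay inside the KO peak in 38. WT peaks had a median of 53.5% of their length covered, and KO peaks 100%. Retained WT peaks spanned 230.9 kb and the KO peaks 109.1 kb, with 92.9 kb in common, which is 40.2% of the WT bases and 85.1% of the KO bases. With a reciprocal overlap of at least 50%, 239 pairs remained and the median width ratio was 0.903. Most pairs were simple: 473 WT peaks met 1 KO peak, 32 met 2 and 8 met 3 or more, up to 5.

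Pileup ratios lay closer to 1 than width ratios, but pileup is bounded by a lowest value of 9 in both lists and by the ceilings, at which 33 retained WT peaks stood. The median pileup was 21 in WT and 17 in KO, with a median paired ratio of 0.903, and KO was lower in 343 pairs, equal in 70 and higher in 100. Whether the caller scaled the libraries is not given in the sources used here. The lowest local background, which follows library depth, was 1.16 fragments in WT and 1.07 in KO, a ratio of 0.921, and the ratio of pileups over these floors had a median of 0.980. Pileup ratios ranged from 0.345 to 1.56, with 13 pairs below 0.5 and 25 above 1.2. The lowest belonged to the peak at chr13:65613455-65614933 over a coding exon of Gm10139, which had 1479 bp and a pileup of 29 in WT and 214 bp and 10 in KO. The highest belonged to chr1:85236911-85237191 in an intron of C130026I21Rik, with 16 in WT and 25 in KO. Of the 102 pairs that were wider in KO, 27 had a KO width above 2 times the WT width, led by chr4:146782302-146782376 with 75 bp in WT and 629 bp in KO, in an intron of Gm17317.

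**Figure D3:**
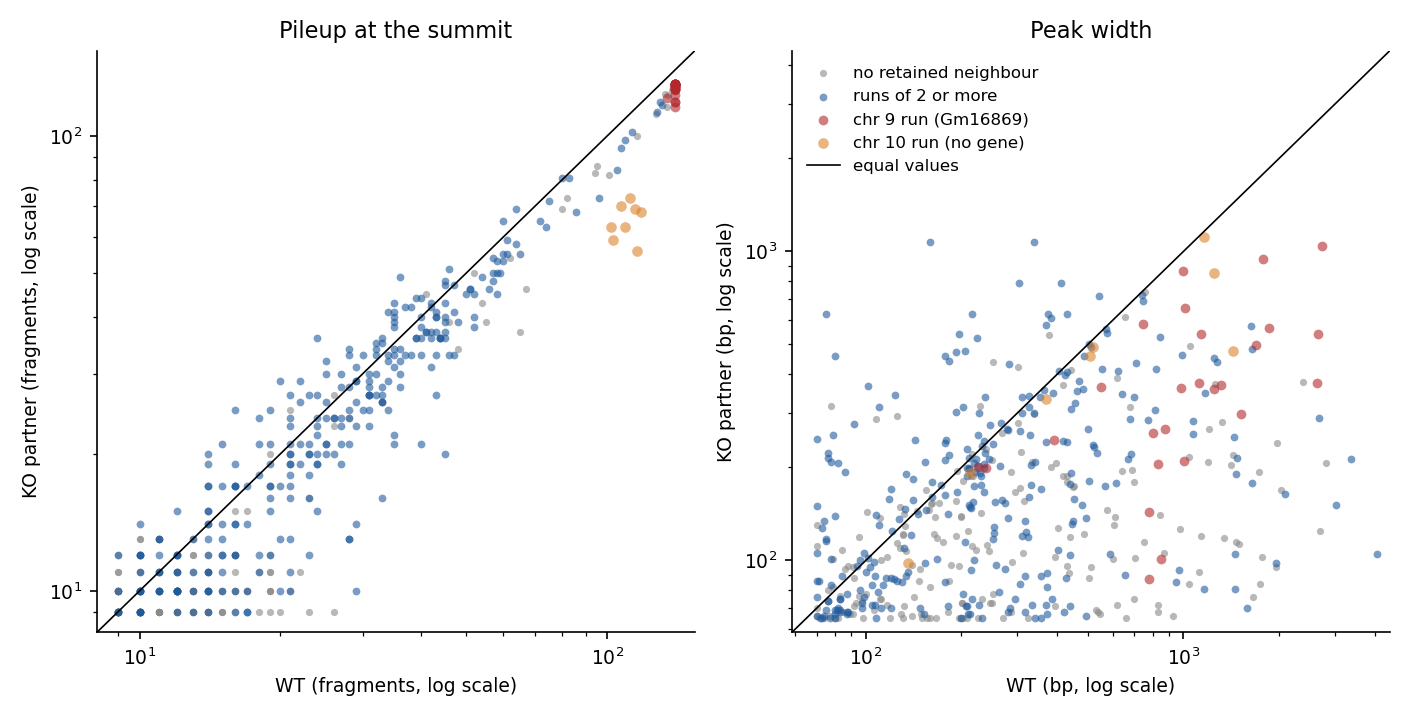
Pileup at the summit in fragments (left) and peak width in bp (right) of the 513 retained WT peaks on the horizontal axis and of their KO partners on the vertical axis, both on log scales, with a line of equal values. Most points lie just below the line for pileup (median ratio 0.903) and well below it for width (0.677), and the 8 peaks of the chromosome 10 run stand apart in pileup.

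Taller WT peaks were retained more often. Of WT peaks with a pileup of 9 to 14, 187 of 20198 were retained (0.926%), of those with 15 to 29, 141 of 1425 (9.89%), and of those with 30 to 59, 107 of 238 (45.0%). Above this, 22 of 31 peaks with 60 to 99 (71.0%) and 56 of 65 with 100 to 140 (86.2%) were retained. The order was the same among peaks with 1 copy in the assembly, where 70 of 6133 peaks in the lowest class (1.14%) and 17 of 17 in the highest class were retained. A copy number of 1 does not exclude satellite-like sequence. The highest class included the satellite-like peaks in Litaf, Ank1, Mdga2 and Mamdc2, beside others such as the one in Cdk5rap2. The local background was high at many of these peaks, and 53.8% of retained peaks had a local background over 3 fragments in WT. Retention was 0.860% at a background of at most 1.5 fragments (162 of 18827), 21.2% between 3 and 10 (129 of 609) and 81.4% above 30 (48 of 59). The part of background, mapping of repeat reads and copy number in retention was not tested, and pileup entered the calling of both lists.

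**Figure D4:**
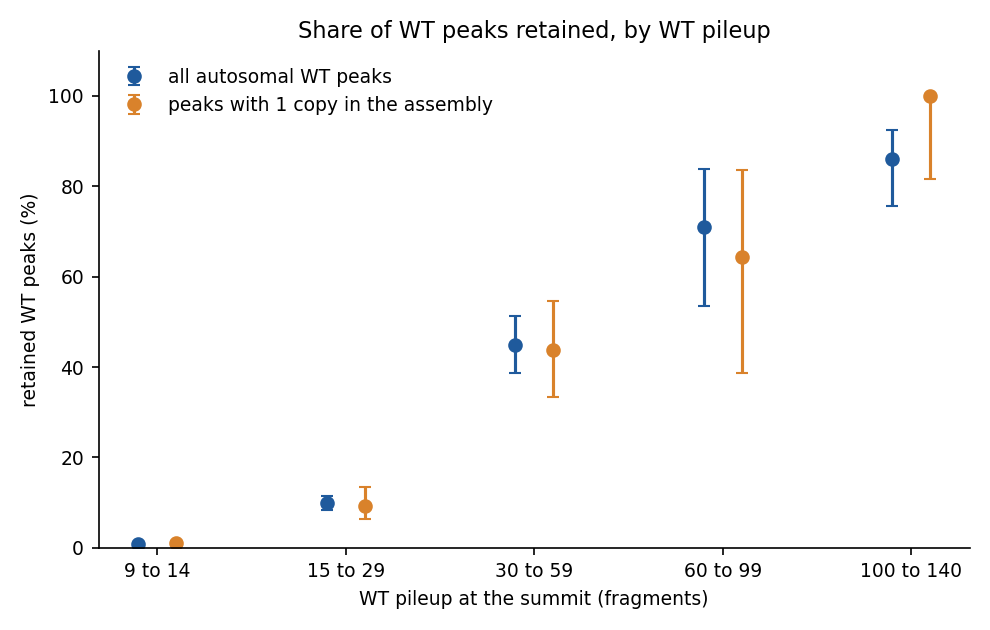
Share of autosomal WT peaks retained, in percent with 95% Wilson intervals, for 5 classes of WT pileup in fragments, for all peaks (blue) and for peaks with 1 copy in the assembly (orange). Both series climb from about 1% in the lowest class to 86.2% and 100% in the highest.

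The width ratio followed the local background as well. In the 162 pairs with a WT background of at most 1.5 fragments the median width ratio was 0.442, with median pileups of 10 in both lists. It was 0.583 in 75 pairs between 1.5 and 3, 0.773 in 129 pairs between 3 and 10 and 0.893 in 99 pairs between 10 and 30. Above 30, where the chromosome 9 run weighs in, it was 0.581 in 48 pairs. Width was thus kept best at intermediate backgrounds and least at the lowest ones.

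Retained and lost peaks differed in sequence and position, none of which the rule used. Retained peaks had 1 copy in the assembly in 155 of 513 (30.2%, interval 26.4 to 34.3%), about as often as lost ones (29.6%). They fell in the class of over 1 to 10 copies in 42.5%, against 15% of lost ones, and in the class over 1000 copies in 7.99%, against 34.6%. Their copies were near: 43.9% of retained peaks had 2 or more copies within 1 Mb, against 10.0% of lost ones. A tandem repeat filled the surrounding 3 kb in 13.1% against 0.849%. An assembly gap of at least 1 kb lay within 100 kb in 40.4% (interval 36.2 to 44.7%) against 3.81% (3.57 to 4.08%), and within 10 kb in 9.55% against 0.597%. Base composition hardly differed, with a median GC content of 37.6% in retained and 38% in lost peaks. Intervals here cover counting error only, and neighbouring peaks are not independent.

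**Figure D5:**
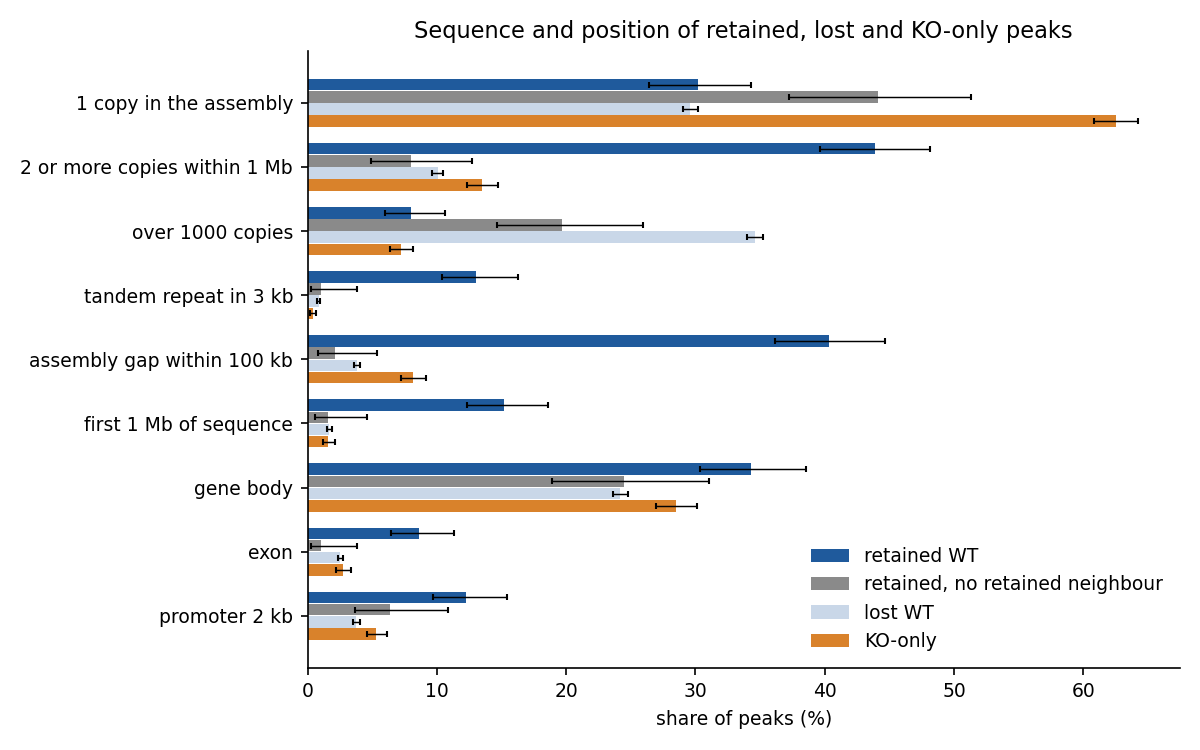
Share of peaks in percent, with 95% Wilson intervals, that had each feature of sequence or position, for retained WT peaks, retained WT peaks with no retained neighbour, lost WT peaks and KO-only peaks. Retained peaks as a whole exceed the others for nearby copies, tandem repeats, assembly gaps and chromosome starts, and those with no retained neighbour lie near the lost peaks for these features.

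The 188 retained peaks without a retained neighbour were of another kind. Only 2.13% of them lay within 100 kb of an assembly gap and 1.60% in the first 1 Mb of a chromosome, 44.1% had 1 copy, and 19.7% had over 1000 copies. Their median pileup was 11 in WT and 10 in KO, and their median width 227 and 111 bp. In runs of 10 or more, by contrast, median pileups were 34 and 33 and the median width ratio 0.838. Among the peaks without a neighbour, those outside satellite-like sequence included a pileup of 138 in WT and 126 in KO in an intron of Cdk5rap2, the gene of a centrosome protein, at chr4:70039182-70039312. An intron of Chl1, a neural adhesion gene, held one at chr6:103599066-103599279 with 140 and 130.

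With respect to genes, 337 retained peaks (65.7%) lay outside annotated genes, 132 in introns (25.7%), 34 over coding exons (6.63%) and 10 over other exons. Lost peaks lay over exons less often, in 2.52% against 8.58% (interval 6.45 to 11.3%), and over gene bodies in 24.2% against 34.3%. Promoters, from 2 kb upstream to 0.5 kb downstream of a transcript start, were met by 63 retained peaks (12.3%, interval 9.72 to 15.4%) and by 3.77% of lost ones. Without the chromosome 9 run, with its many gene models, 5.75% of retained peaks lay over exons and 8.62% at promoters. Genes for long intergenic noncoding RNA held 77 retained peaks in 12 genes (15% of retained against 2.43% of lost peaks), led by Gm16869 with 26, and AC152164.1 and Gm17279 with 21 each on the same stretch of chromosome 8.

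Of 47 protein-coding genes with a retained peak over an exon or promoter, 32 were numbered models named Gm or Rik, among them the 12 on the chromosome 9 satellite array. Several genes with known products belong to tandemly copied families. Dux, which encodes a double homeobox factor of the early embryo, held 2 retained of 5 WT peaks. The first, chr10:57686689-57686921, in an intron, had pileups of 45 and 40 and widths of 233 and 234 bp. The second, chr10:57687283-57687536, over a coding exon, had 31 and 25. In the same array, a peak over 4933403O03Rik had pileups of 28 and 21, one over Gm10807 had 25 and 21, and one 118 bp upstream of Gm10807 had 32 and 30. An array of SNORD116 small nucleolar RNA genes, at chr7:67007550-67040080, kept 6 of 21 WT peaks with median pileups of 22 and 20, none over a snoRNA gene itself. Cyp2c38, Cyp2c40 and Cyp2c69, genes of cytochrome P450 enzymes, held 1 each, and the Cyp2c40 peak, 1885 bp upstream of a transcript start, had pileups of 41 and 37.

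Retained peaks with 1 copy at promoters ranged widely in height. Besides those of Litaf, Oasl1, Ank1 and Sfi1 described above, lower ones were found. Coil, the gene of the Cajal body protein coilin, had a retained peak 856 bp upstream of its start with pileups of 26 and 23. One peak at chr2:79297483-79297865 lay upstream of both Neurod1, which encodes a neuronal transcription factor, and Cerkl, with 10 in WT and 13 in KO. A peak 1240 bp upstream of Wt1, a transcription factor gene of kidney and gonad, had 10 and 9. The odorant receptor gene Olfr1357 had a wide peak upstream, of 2695 bp with a pileup of 22 in WT and 125 bp with 11 in KO. The lowest pileup in either list was 9, so the Neurod1 and Wt1 peaks stood at the edge of detection in both.

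Gene families differed in how many of their WT peaks were retained. The Speer genes kept 5 of 17 (29.4%, interval 13.3 to 53.1%), the Sp100 family 3 of 21 (14.3%, 4.98 to 34.6%) and the Cyp genes 3 of 33 (9.09%, 3.14 to 23.6%). All 5 Speer peaks lay in Speer7-ps1 and all 3 of the Sp100 family in Sp140, so these shares rest on 1 gene each. Of 242 WT peaks over 76 genes whose symbol starts with Zfp, 2 were retained, both in Zfp600 (0.826%). The interval, 0.227 to 2.96%, includes the share over all autosomal WT peaks. The prefix leaves out genes of the chromosome 4 zinc-finger region under other symbols, such as Rex2 and Gm13138. Within the limits given above, that region kept 37 of 379 WT peaks (9.76%). Its retained peaks set those limits, so this share cannot be set against the Zfp share. Of 47 WT peaks over Vmn2r genes, which encode pheromone receptors, 0 were retained, and 0 of 35 over protocadherin genes (Pcdh). A list of imprinted genes had 37 WT peaks and a list of germline genes 19, and 0 of either were retained. The imprinted list did not include the SNORD116 array described above, which kept some of its WT peaks, so the 0 holds for the listed genes only. These zeros allow shares of up to 6.38%, 8.57%, 8.11% and 15.8%, all above the 2.34% over all autosomal WT peaks, so they do not show fewer retained peaks than elsewhere.

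ERVs had few retained peaks as well. Of 697 WT peaks on the full-length ERVs whose mm9 positions the study lists, 3 were retained (0.430%, interval 0.147 to 1.26%). MMERVK10C-int kept 2 of 282 and IAPEz-int 1 of 358, while 0 of 41 peaks on RLTR6-int, 0 of 4 on RLTR4_MM-int and 0 of 12 on the listed MMVL30 classes were retained. The interval lies below the share of all autosomal WT peaks. It includes, however, the shares of low and of many-copy WT peaks. Of WT peaks with a pileup of at most 14, 187 of 20198 were retained (0.926%). With over 100 to 1000 copies it was 12 of 1700 (0.706%), and with over 1000 copies 41 of 7462 (0.55%). Whether ERV peaks were retained less often than other peaks of like height and copy number was not tested. The 3 retained ERV peaks were small. The one at chr1:17947108-17947186, at the edge of an IAPEz-int element, had pileups of 23 and 16. In MMERVK10C-int, chr1:29667239-29667385 had 10 and 10, and chr17:41746812-41746902 had 11 and 13.

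At the 1-bp threshold itself, the retained peak with the least overlap, chr10:21872453-21872525, shared 1 bp with its KO partner and had pileups of 11 and 10. The next shared 7 bp, and 32 retained peaks shared under 50 bp. Just outside, a lost peak at chr12:9688545-9688655 with a WT pileup of 10 had a KO peak beginning or ending at the next base, and the following ones had KO peaks 5, 8 and 12 bp away. In all, 67 lost peaks had a KO peak within 100 bp.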

How the data were processed

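The H3K9me3 peak lists of the WT and KO iMEFs were analysed, from 1 library each; the other 5 of the 7 samples (forebrain and input libraries) have no peak list here and entered no comparison. According to the submitters' processing notes and the methods of the study, single-end reads were mapped to mm9 with Bowtie2 2.2.3, a read with several hits was placed at random, and duplicates were removed with Picard. The file headers name MACS 2.1.0.20140616 as the peak caller; the caller's options and its control are not given in the sources used here. The deposited pileup column is a signal, the fragment coverage at the summit. The deposited fold column is the ratio of pileup to local background, each with 1 added, from which the local background was recovered as (pileup + 1) / fold − 1. The deposited −log10 p and −log10 q columns served only as a filter in an alternative. Read totals are not part of the lists, so depth per library was not known. The lowest local background, 1.16 fragments in WT and 1.07 in KO, can follow depth and fragment length together.

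The deposited start was read as the first base of a peak, since the narrowest peaks then measure 70 and 65 bp, which are 0.5 times the highest pileups of 140 and 130; read as 0-based, 512 instead of 513 WT peaks are retained. Overlaps, runs, word counts and intervals were computed in Python 3.11.15 with numpy 2.4.6, pandas 2.3.3 and pysam 0.24.0, and the overlap step was tested on simulated data. Gene models came from GENCODE M1, built on NCBIM37 (the same assembly as mm9). ERV positions were those listed by the study, used as annotation. Copy number is the median count of the 31-letter words of a peak, on both strands, in the assembled chromosomes; a tandem repeat was called where at least 0.6 of the bases in 3 kb around a peak matched the base 1 period away, for periods up to 1000 bp. Shares carry 95% Wilson intervals, for counting error only; for a count of 0, the upper limit of the share was set by 3 counts.

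The members, gene families and lists were chosen with earlier results of these data known. Named were the 8 runs with most retained peaks, the 5 tallest, widest and most changed pairs, genes of the lists, and up to 30 protein-coding genes with a retained peak over an exon or promoter. The chromosome 10 array, the other runs beyond these 8 (among them those of Gm10801, Dux, Sp110 and SNORD116 and at the starts of chromosomes 3, 4 and 17), the search for words of the chromosome 9 run with its minimum of 20%, and the tallest peaks without a neighbour were added after the values were seen.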

Additional observations from a re-analysis of the deposited data

Results flagged for a closer look

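The X chromosome lies outside the rule, which takes autosomes, and its peaks entered no comparison. There, 48 of 1206 WT peaks had 1 bp or more in common with the KO list (3.98%, 95% Wilson interval 3.02 to 5.24%), and 51 of 104 KO peaks were involved. Over these pairs the median pileup was 54 in WT and 45 in KO. On the Y chromosome 0 of 23 WT peaks were retained, which allows a share of up to 13%.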

How the results depend on the processing

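Of 82 alternative values, 44 stayed within the 95% interval of the value reported (Wilson for shares, order statistics for medians) or, for counts, within 1.5 times, and 38 did not. With peaks under a pileup of 15 left out, 270 WT and 302 KO peaks were retained, the width ratio was 0.841, 76.3% lay in runs of 4 or more, 18.1% at promoters and 25.9% had 1 copy. With −log10 q of at least 3, the counts were 279 and 307 and the width ratio 0.752. With at least 50% of the WT peak covered, the counts were 282 and 307, the width ratio was 0.920 and 5.32% lay over exons. With a reciprocal overlap of 50%, the counts were 239 and 239, the width ratio was 0.903, 46.9% lay in runs and 5.44% over exons. With a local background of at most 3, the counts were 237 and 245, the width ratio was 0.470, 15.6% lay in runs, 28.3% over gene bodies, 5.06% over exons and 5.91% at promoters, and 35.9% had 1 copy. Among peaks with 1 copy, the counts were 155 and 164, and 26.5% lay in runs, 25.2% over gene bodies, 3.23% over exons and 9.68% at promoters. The pileup ratio over each list's background floor was 0.980. Runs with gaps of 50 kb and 500 kb held 47.2% and 56.7%, and promoters reaching 5 kb upstream 18.9%. Without the chromosome 9 run, an alternative added after seeing the data like the 0-based start, 5.75% lay over exons and 8.62% at promoters. The width ratio was below 1 under each of these settings, and the pileup ratio lay between 0.90 and 0.912 except on the floor scale. The cause was not tested. The lists give 1 library per group, reads of repeats were placed at random, and pileup has a ceiling. No paired analysis was possible because WT and KO have 1 library each.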
